A study of Mus musculus with 36 samples.

Results

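Matrix metalloproteases (MMPs) are zinc-dependent proteases that cut extracellular matrix and cell surface proteins, and the tissue inhibitors of metalloproteases (TIMPs) block their active sites. Tumors draw both from cancer cells and from host fibroblasts, macrophages and other stromal cells, and the balance between them bears on matrix turnover, vessel growth and spread. The 10 genes described were taken by name as members of these families, with earlier results of these data known: the stromelysins *Mmp3* and *Mmp10*, the collagenase *Mmp13*, the gelatinases *Mmp2* and *Mmp9*, the macrophage elastase *Mmp12*, the membrane-bound *Mmp14*, and the inhibitors *Timp1*, *Timp2* and *Timp3*. They are 10 of 12394 genes measured on Affymetrix arrays, and 21 probe sets carry their names.

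The study asked how tumors change when mouse mammary tumor lines lose BPTF, the largest subunit of the chromatin remodeling complex NURF. Cells of the lines 67NR and 66cl4 carried either a retroviral hairpin against *Bptf* (Bptf KD) or a control hairpin (Control), and grew in the fourth mammary fat pad of NSG hosts, which lack T, B and NK cells, or of BALB/c hosts, the immune-competent strain the lines come from. Hosts were young adult females. Each of the 8 groups, a line with a hairpin in a host, held 6 Bptf KD or 3 Control tumors, 36 in all. 67NR tumors were taken at 21 days and 66cl4 tumors at 28 days, and 67NR was inoculated with more cells, so line, inoculum and age of the tumor cannot be told apart. A pair of *Bptf* hairpins was used, and the labels do not say which tumor carried which.

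*Bptf* itself was lower with the knockdown label in 66cl4 tumors, by 1.09 on the log2 scale in BALB/c hosts (adjusted p = 0.0628) and by 0.33 in NSG hosts (adjusted p = 0.584), but hardly so in 67NR tumors, where the difference was -0.27 in NSG hosts and -0.06 in BALB/c hosts (adjusted p = 0.644 and 0.985). None passed the threshold, and in 67NR tumors this gene's levels overlapped between the labels, so that Bptf KD there names tumors by their label, as do all directions below. Markers of skeletal muscle had medians of 9.66 and 9.41 on the log2 scale in 66cl4 Bptf KD and Control tumors in BALB/c hosts, against medians of 5.29 to 6.32 in the other groups, with 1 further high tumor, 67NR Bptf KD BALB/c replicate 3, at 11.51. Epithelial markers were low in every group (group medians 5.26 to 6.74, where the median of all probe sets on an array was 7.03 to 7.21), and fibroblast markers high (9.40 to 11.26). All levels are log2 values from RMA, the authors' normalization, and in whole tumors fewer cells of a type and less RNA per cell cannot be told apart.

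*Mmp3*, *Mmp10*, *Mmp12* and *Mmp13* lie together on chromosome 9, in a run of 10 MMP genes that spans 427 kb (GRCm38.p6), of which the arrays measured 9. The other members lie apart, *Mmp2* on chromosome 8, *Mmp9* on 2, *Mmp14* on 14, *Timp1* on X, *Timp2* on 11 and *Timp3* on 10. RefSeq promoter windows were at hand for 8 members, all but *Mmp2* and *Mmp9*, with 9 annotated starts. Each of the 4 members of the chromosome 9 run had the letters TGANTCA within 250 bases upstream of a start. AP-1 (dimers of Fos and Jun proteins) binds this element. *Mmp12* had it only at the further downstream of its 2 starts, and the window of its other start held none. By window, 4 of the 9 held the motif, against 6.75% of all 32851 such windows. The motif equals its own reverse complement, so both strands were searched at once. The 80 bases before the start are shown for these genes because they share the motif, 5′ to 3′ on the gene's strand, with TGANTCA in capitals.
Mmp3, chr9:7445742-7445821, plus strand: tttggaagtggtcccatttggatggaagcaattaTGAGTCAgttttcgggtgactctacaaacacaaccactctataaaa
Mmp10, chr9:7502262-7502341, plus strand: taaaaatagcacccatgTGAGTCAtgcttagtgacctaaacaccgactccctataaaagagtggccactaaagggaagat
Mmp12, the further downstream of its 2 starts, chr9:7347294-7347373, plus strand: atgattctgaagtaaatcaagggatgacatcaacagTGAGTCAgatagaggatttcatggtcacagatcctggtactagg
Mmp13, chr9:7272434-7272513, plus strand: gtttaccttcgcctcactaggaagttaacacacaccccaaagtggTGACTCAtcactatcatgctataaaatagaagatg

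Counted from the start, the first base of the motif lay at -46 in *Mmp3*, -63 in *Mmp10*, -44 in *Mmp12* and -35 in *Mmp13*. The upstream windows of *Mmp14*, *Timp1*, *Timp2* and *Timp3* held no TGANTCA, and each held GGGCGG on 1 strand or the other, the letters of a GC box, as 32.7% of all windows do. *Mmp14* and *Timp1* are shown for contrast, with GGGCGG or its reverse complement in capitals, which in *Mmp14* stands at 2 adjacent places.
Mmp14, chr14:54431518-54431597, plus strand: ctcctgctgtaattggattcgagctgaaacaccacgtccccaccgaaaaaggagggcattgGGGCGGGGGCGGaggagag
Timp1, chrX:20870086-20870165, plus strand: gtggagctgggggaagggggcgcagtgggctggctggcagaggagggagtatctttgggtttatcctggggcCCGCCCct
Such matches describe the letters only and were not tested as sites.

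**Figure D1:**
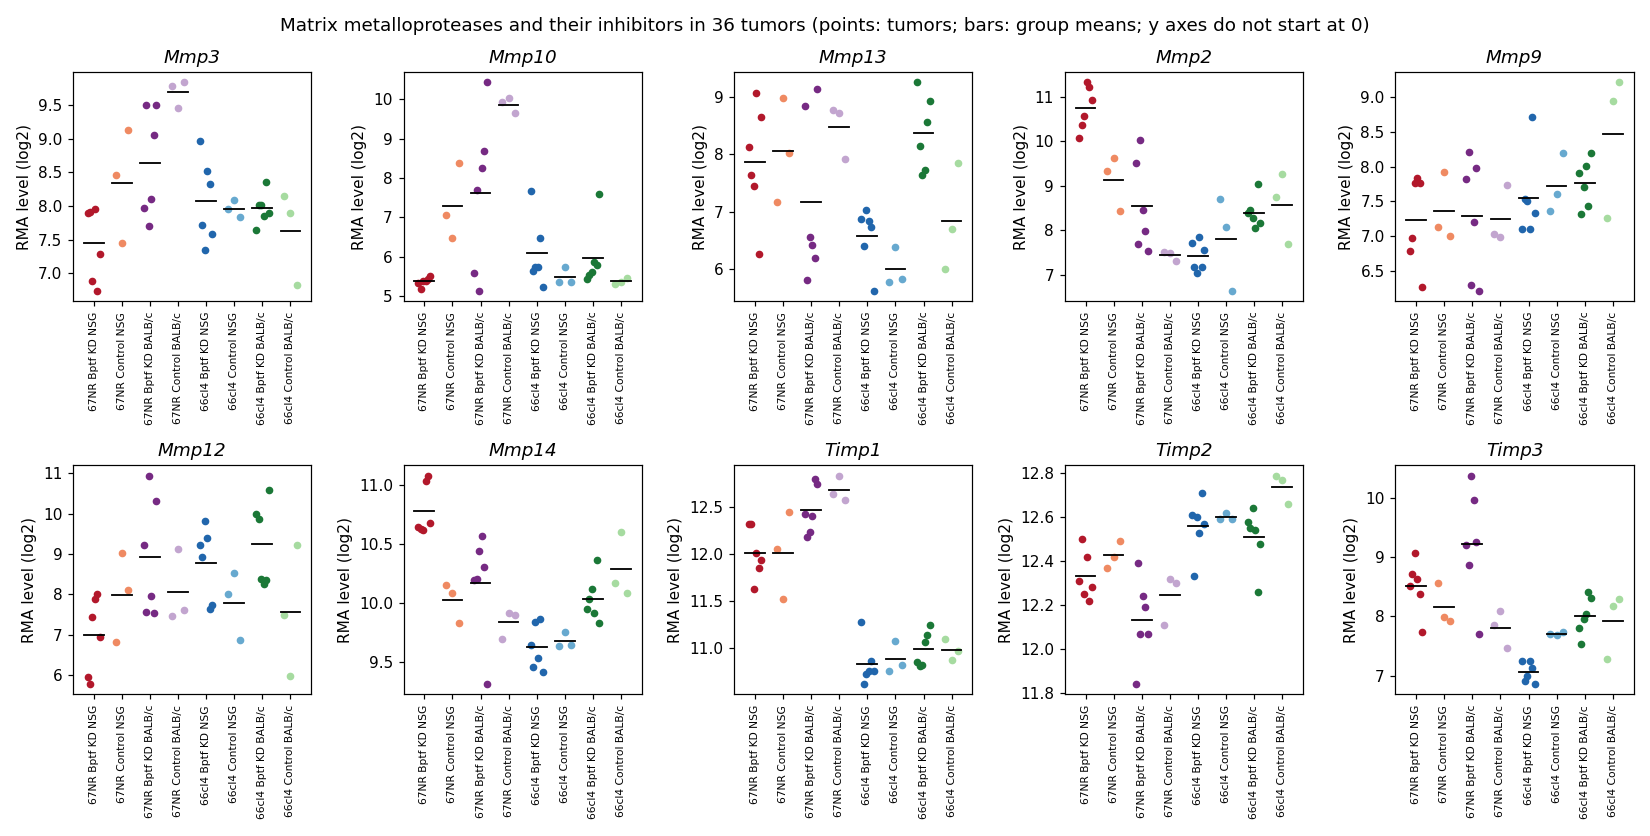
RMA level (log2, y axis) of the 10 genes in each of 36 tumors (points), with the mean of each group (bar), by line, host and hairpin (x axis). *Mmp10* stands at 5.18 to 5.51 in 67NR Bptf KD tumors in NSG hosts and at 9.64 to 10.02 in 67NR Control tumors in BALB/c hosts, and *Timp1* is higher in every 67NR tumor than in any 66cl4 tumor.

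With Bptf KD, *Mmp2* and *Mmp14* rose and *Mmp10* fell in 67NR tumors of NSG hosts, by these labels, and no member passed the test in the other 3 combinations of line and host. *Mmp14* is the membrane protease that activates pro-MMP-2 at the cell surface. These are 3 of 10 members past an adjusted p of 0.05 over all genes, in a comparison where 1.14% of all genes passed. The median difference over the members was -0.11, against 0.02 over all genes.

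*Mmp2*, which cleaves gelatin and type IV collagen, stood at 10.08, 10.35, 10.56, 10.93, 11.21 and 11.32 in 67NR Bptf KD tumors in NSG hosts, against 8.44, 9.32 and 9.62 in 67NR Control tumors in NSG hosts. Every knockdown tumor lay above every control. The difference was 1.61 ± 0.31 on the log2 scale (SE, n = 6 and 3), 3.06-fold, with a limma adjusted p of 0.0370 and an exact permutation p of 0.0119, the smallest that 6 against 3 tumors allow. The gene's other probe set gave 1.78 ± 0.30 (adjusted p = 0.0277, taken over all probe sets, as for every further probe set below).

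*Mmp14* stood at 10.62 to 11.08 (median 10.66) in 67NR Bptf KD tumors in NSG hosts, against 9.83, 10.08 and 10.15 in 67NR Control tumors in NSG hosts. The groups did not overlap. It rose by 0.76 ± 0.14, 1.69-fold (adjusted p = 0.0327, exact permutation p = 0.0119). The dimmer probe set of *Mmp14* gave 0.49 ± 0.19 and did not pass (adjusted p = 0.268, 5 of 6 tumors above all controls).

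*Mmp10*, a stromelysin that cleaves several matrix proteins and activates other MMPs, stood at 5.18, 5.33, 5.38, 5.39, 5.43 and 5.51 in 67NR Bptf KD tumors in NSG hosts, against 6.46, 7.06 and 8.37 in 67NR Control tumors in NSG hosts. The knockdown tumors were close to each other and all below the controls. It fell by 1.93 ± 0.31 (adjusted p = 0.0189, exact permutation p = 0.0119). The knockdown tumors were at about the level of 66cl4 Control tumors (5.31 to 5.73), and the lowest value of this probe set in the series was 5.13. Detection calls were not examined, so no fold is given against tumors this close to the lowest value. *Mmp3* had a difference of -0.90 ± 0.38 and did not pass (adjusted p = 0.305), and 3 of 6 knockdown tumors lay below all controls.

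The remaining 6 members of this comparison did not pass. *Timp1* stood at 11.63 to 12.32 in Bptf KD tumors and 11.53 to 12.45 in Control tumors (difference 0.00 ± 0.21, adjusted p = 0.997). *Mmp12* had a difference of -0.98 ± 0.57, *Timp3* of 0.35 ± 0.25, *Mmp13* of -0.19 ± 0.56, *Mmp9* of -0.12 ± 0.36 and *Timp2* of -0.10 ± 0.10.

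Fibroblast and matrix genes had mostly positive differences in these tumors. Of 19 matrix proteins that MMPs cut, 19 had positive differences (median 0.66) and 2 rose past the threshold, *Dcn* (decorin, a small proteoglycan, 1.80, adjusted p = 0.00152) and *Col5a2* (a type V collagen chain, 1.42, adjusted p = 0.0335). Of 14 fibroblast markers, 13 had positive differences (median 0.72) and 2 rose, *Dcn* and *Ogn* (osteoglycin, 2.38, adjusted p = 0.00583). The mean of the fibroblast markers ran from 10.74 to 11.56 in 67NR Bptf KD tumors in NSG hosts, against 10.09 to 10.54 in the Control tumors, with no overlap. Of 12 epithelial markers, 11 had positive differences (median 0.30) and 1 rose, *Krt8* (a keratin, 1.68 ± 0.20, adjusted p = 0.00505). Their mean ran from 5.86 to 6.38 in the Bptf KD tumors, against 5.40 to 5.73 in the Control tumors, again with no overlap. Macrophage markers had a median of -0.17, and none of 13 passed. The part of these cells in the MMP differences was not tested. The RNA integrity ratio, the log2 level of the 3′ minus the 5′ control probe sets of actin and Gapdh, averaged 0.619 in these Bptf KD tumors and 0.488 in the Control tumors, and with it as a covariate the 3 members still passed.

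On the list of 17 activators and regulators of MMPs 1 gene fell, *Pcolce2* (-1.08, adjusted p = 0.0281). It is an enhancer of procollagen processing, and the list is not limited to genes that act on MMPs themselves. None of the 7 AP-1 subunits and none of 13 other MMPs and inhibitors passed.

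The 3 calls rested on few tumors. Without 67NR Control NSG replicate 1 or without 67NR Bptf KD NSG replicate 3 no member passed. *Mmp10* then had adjusted p values of 0.0545 to 0.0984, and it passed whichever other tumor was left out. *Mmp2* was also lost without Control replicate 3 or Bptf KD replicates 2, 4 or 6 (adjusted p 0.0599 to 0.251 over the 6), and *Mmp14* without Control replicate 3 or Bptf KD replicates 1, 2 or 4 (0.0575 to 0.253 over the 6). Directions were the same in all of these fits, and by the methods' t-test 0 members passed.

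**Figure D2:**
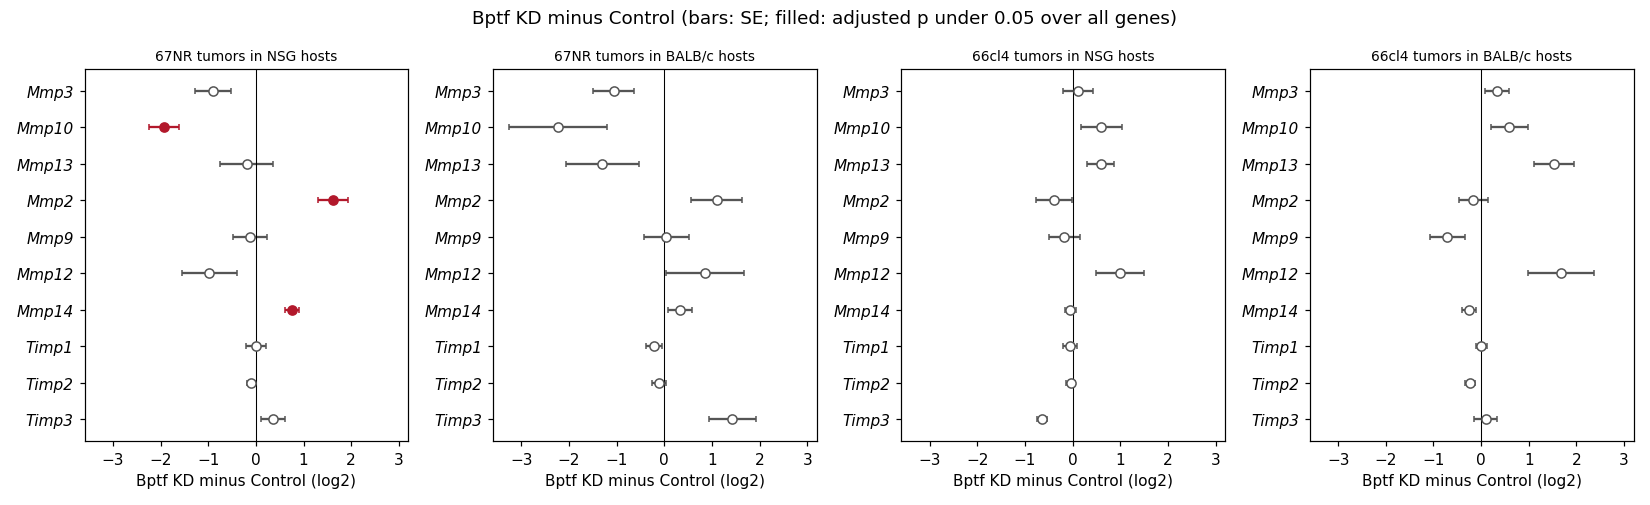
Difference between Bptf KD and Control tumors (log2, x axis) for each of the 10 genes (y axis) in the 4 combinations of line and host, with SE bars, where filled points have an adjusted p under 0.05 over all genes. *Mmp2* (1.61), *Mmp14* (0.76) and *Mmp10* (-1.93) in 67NR tumors of NSG hosts are the filled points.

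In 66cl4 tumors of NSG hosts no member passed, in a comparison where 0.00% of all genes did (952 genes, 7.68%, had an unadjusted p under 0.05, and 1 member did). That member was *Timp3*, a matrix-bound inhibitor that also blocks ADAM proteases. It stood at 6.86 to 7.24 (median 7.07) in 66cl4 Bptf KD tumors in NSG hosts, against 7.69, 7.70 and 7.73 in 66cl4 Control tumors in NSG hosts. All 6 knockdown tumors were below all controls. The difference was -0.64 ± 0.11 (unadjusted p = 9.63e-05, adjusted p = 0.419, exact permutation p = 0.0119), and 2 further *Timp3* probe sets gave -0.48 ± 0.18 and -0.36 ± 0.13. The dimmest *Timp3* probe set gave 0.025 ± 0.182. *Mmp2* (-0.39 ± 0.37) and *Mmp14* (-0.05 ± 0.12) had differences near or below 0 here.

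The difference between these line effects in NSG hosts was tested as an interaction. *Mmp14* passed, with a Bptf KD difference that was 0.81 ± 0.19 larger in 67NR than in 66cl4 tumors (adjusted p = 0.0447), and *Mmp10* gave -2.53 ± 0.58 (adjusted p = 0.0448), 2 of 10 members where 0.960% of all genes passed. For *Mmp10* the 66cl4 Control tumors stood at 5.35, 5.36 and 5.73, next to the lowest value in the series, so a fall like that in 67NR could not have been measured in 66cl4, and no difference in response between the lines is read from it. *Mmp2* gave 2.01 ± 0.52 and did not pass (adjusted p = 0.0801), nor did *Timp3* at 0.99 ± 0.29 (adjusted p = 0.130). The *Mmp10* call was lost without any 1 of 14 of the 18 tumors and the *Mmp14* call without any 1 of 12 (adjusted p 0.051 to 0.193 and 0.0572 to 0.193). The tumors whose loss kept *Mmp10* were 67NR Control replicate 2, 67NR Bptf KD replicate 5 and 66cl4 Bptf KD replicates 1 and 6, and those that kept *Mmp14* were 67NR Control replicate 2, 67NR Bptf KD replicates 2, 5 and 6 and 66cl4 Bptf KD replicates 3 and 5.

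In 67NR tumors of BALB/c hosts no member passed either, where 0.00% of all genes did (961 genes, 7.75%, unadjusted, with 2 members among them), and the knockdown tumors were spread wide. *Mmp10* stood at 5.13, 5.58, 7.68, 8.26, 8.68 and 10.43 in 67NR Bptf KD tumors in BALB/c hosts, against 9.64, 9.92 and 10.02 in 67NR Control tumors in BALB/c hosts. Knockdown tumors covered the whole range of this gene in the series, 5 below and 1 above all controls. The difference was -2.23 ± 1.03 (adjusted p = 0.653, exact permutation p = 0.107). The knockdown tumor above all controls was replicate 6. Its *Bptf* level was 8.34, where the other knockdown tumors stood at 9.82 to 10.68 and the Control tumors at 9.73 to 10.31. It also had the lowest *Mmp2*, *Mmp14* and *Timp3* of these knockdown tumors, at 7.54, 9.31 and 7.71. Whether the *Bptf* level bears on these values was not tested.

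*Mmp2* stood at 7.54, 7.70, 7.97, 8.46, 9.50 and 10.02 in these Bptf KD tumors, against 7.30, 7.49 and 7.52 in the Control tumors. All 6 knockdown tumors were above the controls, some barely (1.09 ± 0.53, adjusted p = 0.658, exact permutation p = 0.0952). *Timp3* stood at 7.71 to 10.38 (median 9.24) against 7.46, 7.86 and 8.09, with 5 of 6 above all controls (1.43 ± 0.50, adjusted p = 0.609). *Mmp3* had a difference of -1.06 ± 0.43 (adjusted p = 0.635), *Mmp13* of -1.30 ± 0.76 and *Mmp12* of 0.85 ± 0.82.

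The tumors with the lowest *Mmp10* were the ones with the highest *Mmp2*, 67NR Bptf KD BALB/c replicates 1 and 3. They also had the highest mean fibroblast marker levels of the group, at 11.46 and 11.10, where the other 4 ran from 9.16 to 10.12. Replicate 3 was the tumor with high muscle markers, and its macrophage (11.95) and T and NK cell (10.65) marker means were the highest of the group too. The RNA integrity ratio ran from 0.545 to 1.315 in 67NR Bptf KD tumors in BALB/c hosts, and no other group went above 0.885. The part of these markers and of RNA integrity in the spread was not tested. Signs ran the same way as in NSG hosts for *Mmp2*, *Mmp10* and *Mmp14*, and the tests of the difference between hosts gave adjusted p values of 0.949, 0.984 and 0.844, with 0.00% of all genes past the threshold.

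**Figure D3:**
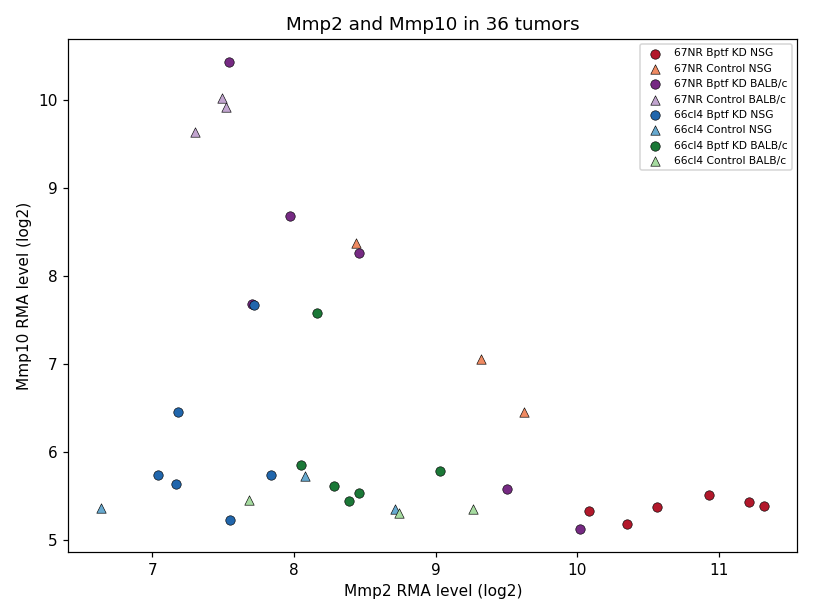
Level of *Mmp2* (x axis) and of *Mmp10* (y axis), both log2, in each of 36 tumors, with circles for Bptf KD and triangles for Control. The 6 tumors of 67NR Bptf KD in NSG hosts lie at the lower right (*Mmp2* 10.08 to 11.32), the 3 of 67NR Control in BALB/c hosts at the upper left (*Mmp10* 9.64 to 10.02), and 67NR Bptf KD tumors in BALB/c hosts are spread from the upper left toward the lower right.

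In 66cl4 tumors of BALB/c hosts no member passed, where 0.186% of all genes did (23 genes, and 3193 genes, 25.8%, had an unadjusted p under 0.05, with 3 members among them). *Mmp13*, which cleaves fibrillar collagen, stood at 7.64 to 9.25 (median 8.36) in 66cl4 Bptf KD tumors in BALB/c hosts, against 6.0, 6.70 and 7.84 in 66cl4 Control tumors in BALB/c hosts. The groups overlapped, with 4 of 6 knockdown tumors above all controls (1.53 ± 0.43, adjusted p = 0.0809, exact permutation p = 0.0476). *Mmp12*, made mostly by macrophages, stood at 8.26 to 10.58 (median 9.12) against 5.97, 7.48 and 9.23 (1.68 ± 0.70, adjusted p = 0.163). Macrophage marker means overlapped, at 11.94 to 12.33 and 12.03 to 12.30.

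*Timp2*, an inhibitor that also takes part in the activation of pro-MMP-2 by MMP-14, was lower in all 6 of these knockdown tumors than in any control on 5 of its 6 probe sets. The brightest, with a mean at percentile 97.5 of all genes, gave -0.23 ± 0.10 (adjusted p = 0.183), and 4 others gave -0.87 ± 0.22 to -1.15 ± 0.24 (adjusted p 0.0570 to 0.0688, exact permutation p = 0.0119 each). None passed. The dimmest probe set gave -0.04 ± 0.17. By limma, the tests of the difference between the line effects in BALB/c hosts passed for 0 members and 0.00% of all genes. *Mmp13* had an adjusted p of 0.485. An unadjusted p under 0.05 was reached by 4 of 10 members, where 1195 genes (9.64%) had 1.

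Between the lines, *Timp1* was the member that passed in both hosts and with either label. *Timp1*, a broad secreted inhibitor of MMPs, was higher in 67NR than in 66cl4 tumors in all 4 comparisons, and every 67NR tumor of the series lay above every 66cl4 tumor. It stood at 11.63 to 12.32 (median 11.98) in 67NR Bptf KD tumors in NSG hosts, against 10.62 to 11.28 (median 10.76) in 66cl4 Bptf KD tumors. In BALB/c hosts the knockdown tumors stood at 12.19 to 12.80 (median 12.42) in 67NR, against 10.81 to 11.25 (median 10.96) in 66cl4.

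The 67NR minus 66cl4 difference in *Timp1* was 1.18 ± 0.14 in Bptf KD tumors in NSG hosts (adjusted p = 1.04e-05) and 1.48 ± 0.13 in BALB/c hosts (adjusted p = 2.16e-05, exact permutation p = 0.00216 in both, the smallest that 6 against 6 tumors allow). In Control tumors it was 1.13 ± 0.23 in NSG hosts (adjusted p = 0.00686) and 1.70 ± 0.13 in BALB/c hosts (adjusted p = 4.91e-05), where 3 against 3 tumors cannot reach an exact p below 0.10. None of these was lost when any 1 tumor was left out. With RNA integrity as a covariate and under the methods' t-test, the difference in NSG Control tumors was lost (adjusted p 0.191 and 0.0593). The RNA integrity ratio did not overlap between the lines in those tumors.

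In Bptf KD tumors of NSG hosts 7 of 10 members differed between the lines, where 42.5% of all genes did. *Mmp2* was at 10.08 to 11.32 (median 10.74) in 67NR Bptf KD tumors, against 7.04 to 7.84 (median 7.37) in 66cl4 Bptf KD tumors, a difference of 3.32 ± 0.21, 10.0-fold (adjusted p = 4.27e-08). *Mmp14* was higher by 1.16 ± 0.12 (adjusted p = 2.70e-06), *Timp3* by 1.44 ± 0.18 (adjusted p = 1.70e-05) and *Mmp13* by 1.28 ± 0.39 (adjusted p = 0.0168). *Mmp2*, *Mmp14*, *Timp1* and *Timp3* were each apart in all 12 tumors. *Mmp12* was lower in 67NR, at 5.78 to 8.0 (median 7.20) against 7.63 to 9.82 (median 9.07) in 66cl4 (-1.78 ± 0.46, adjusted p = 0.00641), and 11 of 13 macrophage markers were lower there too (median -1.10).

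*Reck*, a membrane-anchored inhibitor of MMPs, was lower in 67NR in the same comparison (-1.06, adjusted p = 4.37e-06). Of the 19 matrix substrates, 17 were higher and 1 lower in 67NR (median 1.61), among them *Col1a2* (3.13, adjusted p = 4.01e-08), *Vcan* (3.87, adjusted p = 1.47e-07), *Col6a3* (3.43, adjusted p = 2.81e-07) and *Dcn* (2.93, adjusted p = 3.84e-07), and 7 of 14 fibroblast markers were higher and 2 lower. Their part in the MMP differences was not tested.

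In Control tumors of NSG hosts 3 members were higher in 67NR, where 36.2% of all genes differed. *Mmp10* was at 6.46, 7.06 and 8.37 in 67NR Control tumors, against 5.35, 5.36 and 5.73 in 66cl4 Control tumors (1.82 ± 0.43, adjusted p = 0.0137), and *Mmp13* at 7.17, 8.02 and 8.98 against 5.78, 5.83 and 6.39 (2.06 ± 0.42, adjusted p = 0.00714). *Timp1* was the third. *Mmp2* was not called (1.32 ± 0.52, adjusted p = 0.0898). None of the 3 passed with RNA integrity as a covariate (adjusted p 0.191 to 0.578) or by the methods' t-test (0.0593 or more). The RNA integrity ratio was 0.46 to 0.54 in these 67NR tumors and 0.615 to 0.69 in the 66cl4 tumors. Without overlap in the ratio, line and RNA integrity are hard to tell apart in the covariate fit. Of 13 macrophage markers 11 were lower in 67NR here (median -1.02), as were 7 of 12 neutrophil markers (median -0.51), while 12 of 19 matrix substrates were higher and 2 lower (median 1.07), and 7 of 10 endothelial markers were higher and 1 lower (median 0.65). Their part in these differences was not tested.

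In Control tumors of BALB/c hosts 6 members differed, where 26.1% of all genes did, and the stromelysins stood out. *Mmp10* was at 9.64, 9.92 and 10.02 in 67NR Control tumors, against 5.31, 5.35 and 5.45 in 66cl4 Control tumors. The 66cl4 tumors were again close to the lowest value of this probe set. The difference of 4.49 ± 0.14 (adjusted p = 6.57e-07) was past the threshold under each of 10 other settings and without any 1 tumor. *Mmp3* was at 9.46, 9.79 and 9.84 against 6.83, 7.89 and 8.15 (2.07 ± 0.31, adjusted p = 0.00175), and *Mmp13* at 7.92, 8.71 and 8.77 against 6.0, 6.70 and 7.84 (1.62 ± 0.43, adjusted p = 0.0252). All 3 were higher in every 67NR tumor.

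*Mmp2* and *Timp2* (the brightest probe set) were lower in 67NR here. *Mmp2* stood at 7.30, 7.49 and 7.52 in 67NR Control tumors, against 7.68, 8.74 and 9.26 in 66cl4 Control tumors (-1.12 ± 0.34, adjusted p = 0.0427), the opposite direction to that in Bptf KD tumors of NSG hosts. The other *Mmp2* probe set gave -1.18 ± 0.37 and did not pass (adjusted p = 0.0524). With RNA integrity as a covariate *Mmp2* gave -0.63 (adjusted p = 0.129) and with array weights -0.55 (adjusted p = 0.170). *Timp2* gave -0.50 ± 0.12 (adjusted p = 0.0159), but -0.24 with the mean of its probe sets (adjusted p = 0.278), and it was lost with RNA integrity as a covariate too (-0.44, adjusted p = 0.0617). Muscle markers differed as well, with 12 of 13 lower in 67NR (median -4.13), and 11 of 13 macrophage markers (median -0.76). Fibroblast markers ran the same way as *Mmp2*, with 7 of 14 lower and 1 higher (median -0.87), and of the 19 matrix substrates 7 were lower and 4 higher (median -0.91). Their part in these differences was not tested. Without 67NR Control replicate 1, *Mmp2*, *Mmp13* and *Timp2* were lost (3 members left), *Mmp13* also without 67NR Control replicate 2 or 66cl4 Control replicate 2, and *Mmp2* without any tumor except 66cl4 Control replicate 3 (adjusted p 0.0534 to 0.122 over all of these).

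Other genes of the chromosome 9 run differed there as well. *Mmp1a* (1.13, adjusted p = 0.000924) and *Mmp20* (1.71, adjusted p = 0.00195) were higher in 67NR Control tumors of BALB/c hosts, and *Mmp1b*, *Mmp7* and *Mmp8* were not called. The AP-1 subunits were split, with *Fosl1* (1.63, adjusted p = 0.000516) and *Jun* (0.79, adjusted p = 0.00738) higher and *Fos* (-1.77, adjusted p = 0.00185) and *Jund* (-0.80, adjusted p = 0.00317) lower in 67NR. *Plaur*, the receptor of the plasminogen activator uPA, was higher (1.18, adjusted p = 0.00117), and *Reck* lower (-1.67, adjusted p = 0.000516).

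In Bptf KD tumors of BALB/c hosts 3 members differed, where 14.0% of all genes did: *Timp1*, *Timp3* (1.22 ± 0.36, adjusted p = 0.0423) and, on its brightest probe set, *Timp2* (-0.38 ± 0.10, adjusted p = 0.0322). The other 5 *Timp2* probe sets gave -0.05 to 0.22, none passing, and the mean of all 6 gave -0.03 (adjusted p = 0.964). *Timp3* stood at 7.71 to 10.38 (median 9.24) in 67NR, against 7.53 to 8.42 (median 8.0) in 66cl4, with 5 of 6 above. *Mmp10* ran from 5.13 to 10.43 against 5.44 to 7.58 (1.66 ± 0.79, adjusted p = 0.184) and *Mmp3* from 7.70 to 9.50 against 7.65 to 8.36 (0.67 ± 0.31, adjusted p = 0.181). *Mmp13* was in sign lower in 67NR, at 5.82 to 9.14 against 7.64 to 9.25 (-1.21 ± 0.58, adjusted p = 0.189). *Timp3* was lost without 67NR replicates 2, 3, 4 or 5 or any 1 of the 66cl4 tumors, and *Timp2* without 67NR replicate 5 or any 66cl4 tumor but replicate 5 (adjusted p 0.0528 to 0.0944).

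**Figure D4:**
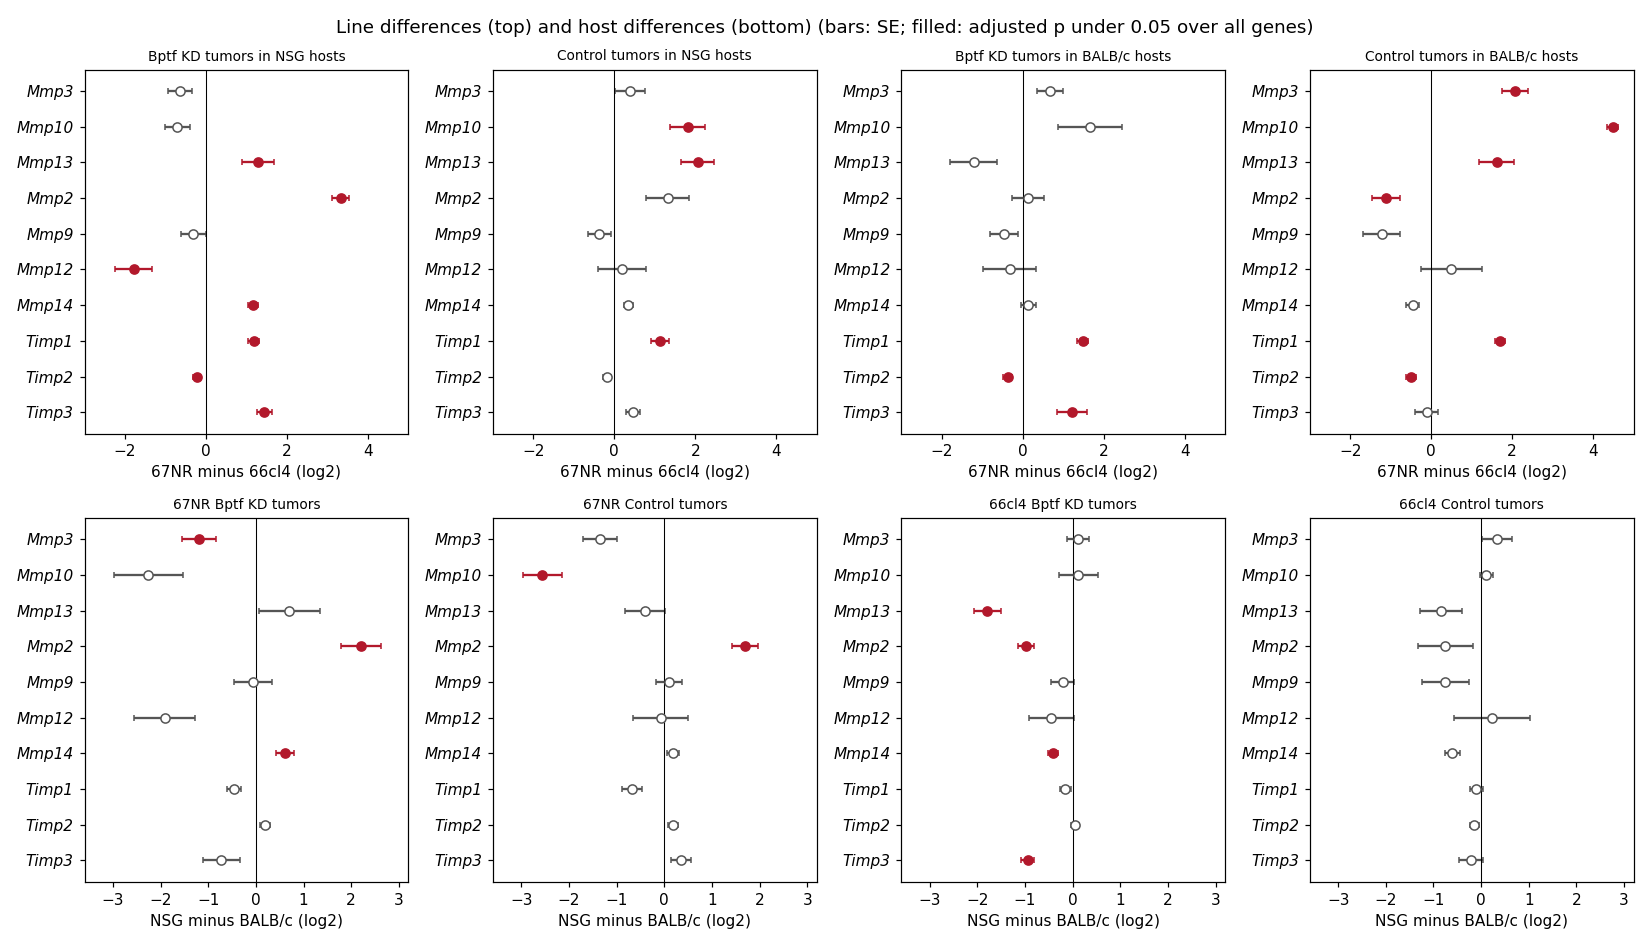
Differences of the 10 genes (y axis) between lines (top, 67NR minus 66cl4) and between hosts (bottom, NSG minus BALB/c), log2 on the x axis, with SE bars and filled points where the adjusted p over all genes was under 0.05. *Timp1* is filled in all 4 line panels, and *Mmp2* is filled to the right in both 67NR host panels (2.21 and 1.69) and to the left in 66cl4 Bptf KD tumors (-0.98).

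The probe sets of *Timp2* did not run together between the lines. In Control tumors of NSG hosts the brightest, whose 36 values cover less than 1 log2 unit, was at 12.43 in 67NR and 12.60 in 66cl4 on average (-0.17 ± 0.09, adjusted p = 0.200), while 4 dimmer ones were higher in 67NR by 0.95 to 1.12 (adjusted p 0.00213 to 0.00555). In Bptf KD tumors of NSG hosts the brightest gave -0.23 ± 0.08 (adjusted p = 0.0374), and the same 4 gave 0.45 to 0.94, of which 3 passed (adjusted p 0.00651 to 0.0226). The direction for *Timp2* between lines in NSG hosts therefore depends on the probe set, as the calls in BALB/c hosts do, and no direction is given for the gene. *Mmp9* was not called on its brighter probe set in any line comparison, and its other was lower in 67NR in all 4, by 0.66 to 1.14 (adjusted p 0.0109 to 0.0455).

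**Figure D5:**
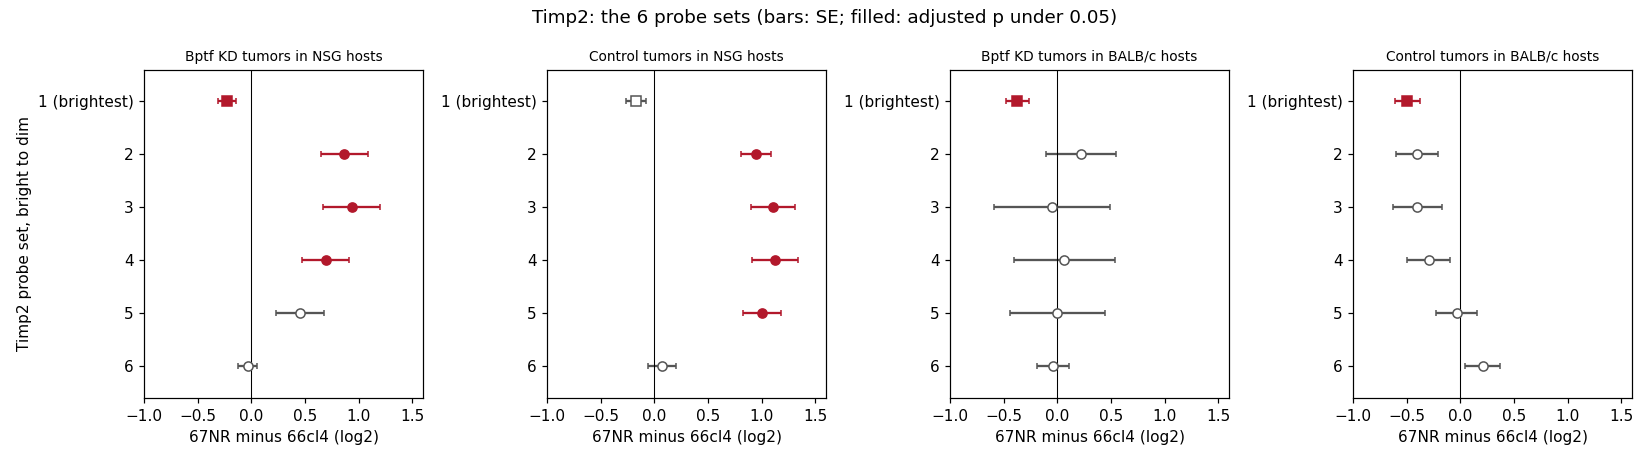
Difference between 67NR and 66cl4 tumors (log2, x axis) on each of the 6 *Timp2* probe sets, ordered from bright to dim (y axis), with SE bars, where filled points have an adjusted p under 0.05 (over all genes for the brightest, over all probe sets for the others). In both NSG panels the brightest probe set (square) lies left of 0 and probe sets of middle brightness lie right of it, by 0.45 to 1.12.

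Between hosts, 67NR tumors had more of the gelatinase *Mmp2* in NSG mice with either hairpin, and less *Mmp10* (Control tumors) or *Mmp3* (Bptf KD tumors). In 67NR Control tumors 2 of 10 members passed, where 7.58% of all genes did. *Mmp2* was at 8.44, 9.32 and 9.62 in NSG hosts, against 7.30, 7.49 and 7.52 in BALB/c hosts (1.69 ± 0.27, 3.23-fold, adjusted p = 0.0113). *Mmp10* was at 6.46, 7.06 and 8.37 against 9.64, 9.92 and 10.02, and fell by 2.56 ± 0.41, 5.91-fold (adjusted p = 0.0118). *Mmp3* was below all BALB/c tumors in each NSG tumor (-1.35 ± 0.36) and did not pass (adjusted p = 0.0571). Both calls were lost without 67NR Control BALB/c replicate 1 (adjusted p 0.0546 and 0.0605), and 4 members passed without 67NR Control NSG replicate 3. The RNA integrity ratio was 0.46 to 0.54 in the NSG tumors and 0.77 to 0.865 in the BALB/c tumors, and with it as a covariate neither *Mmp2* nor *Mmp10* passed (adjusted p = 0.999 each). Of 14 fibroblast markers 7 were higher in NSG hosts (median 0.93), as were 7 of 19 matrix substrates (median 0.72), with none lower. Their part and that of RNA integrity in these differences were not tested.

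In 67NR Bptf KD tumors 3 of 10 passed, where 15.8% of all genes did. *Mmp2* was at 10.08 to 11.32 (median 10.74) in NSG hosts, against 7.54 to 10.02 (median 8.21) in BALB/c hosts, with no overlap (2.21 ± 0.42, adjusted p = 0.00381). *Mmp14* did not overlap either, at 10.62 to 11.08 against 9.31 to 10.57 (0.61 ± 0.19, adjusted p = 0.0478), and *Mmp3* was lower by 1.19 ± 0.36 (adjusted p = 0.0423). *Mmp10* (-2.26 ± 0.73, adjusted p = 0.0538) and *Mmp12* (-1.91 ± 0.64, adjusted p = 0.0634) fell short of the threshold.

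The *Mmp2* call stood without any 1 tumor. *Mmp14* was lost without any 1 NSG tumor or BALB/c replicates 1, 2 or 5, and *Mmp3* without NSG replicates 1, 2, 3, 5 or 6 or BALB/c replicates 2, 5 or 6 (adjusted p 0.0512 to 0.1), and only 1 member passed without NSG replicate 1, 3, 5 or 6. Of 14 fibroblast markers, 6 were higher and 1 was lower in NSG hosts here (median 1.01), and all 13 T and NK cell markers fell (median -4.02), as 10 of 13 did in 67NR Control tumors (median -2.02). NSG hosts lack these lymphocytes by genotype. Their part in the MMP differences was not tested.

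In 66cl4 Bptf KD tumors *Mmp2* was lower in NSG hosts, and the difference between the lines in this host effect was not tested. In these tumors 4 of 10 members passed, where 11.1% of all genes did, and all 4 fell in NSG hosts. *Mmp13* was at 5.63 to 7.03 (median 6.79) in NSG hosts, against 7.64 to 9.25 (median 8.36) in BALB/c hosts, with no overlap (-1.79 ± 0.29, 3.46-fold lower, adjusted p = 0.00121). *Timp3* was at 6.86 to 7.24 against 7.53 to 8.42 (-0.95 ± 0.14, adjusted p = 0.000516) and *Mmp2* at 7.04 to 7.84 against 8.05 to 9.03 (-0.98 ± 0.17, adjusted p = 0.00221).

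These 3 stood without any 1 tumor, and *Mmp14* (-0.41 ± 0.11, adjusted p = 0.0244) was lost without NSG replicates 2, 4 or 6 or BALB/c replicates 3 or 5 (adjusted p 0.0512 to 0.0589). The dimmer *Mmp14* probe set gave 0.12 ± 0.10. *Mmp14* was also lost in the fit of all 36 tumors, with the mean of its probe sets and with RNA integrity as a covariate (adjusted p 0.0694 to 0.395). *Mmp2* was lost in the fit of all 36 tumors (adjusted p = 0.125). All 13 muscle markers fell in NSG hosts as well (median -4.00), the marker mean being 5.22 to 7.13 there and 6.59 to 11.01 in BALB/c hosts, and 7 of 19 matrix substrates and 4 of 14 fibroblast markers fell. Their part in these differences was not tested.

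In 66cl4 Control tumors 0 of 10 members passed by limma, where 2.53% of all genes did. An unadjusted p under 0.05 was reached by 3780 genes (30.5%) and by 1 member. That was *Mmp14*, at 9.63, 9.64 and 9.75 in NSG hosts and 10.08, 10.17 and 10.60 in BALB/c hosts (-0.61 ± 0.16, adjusted p = 0.0686). Without 66cl4 Control BALB/c replicate 1, 3 members passed. On 1 of its other probe sets *Timp2* was lower in NSG hosts by 1.11 ± 0.22 (adjusted p = 0.0451), and 2 more gave -1.23 and -1.15 (adjusted p = 0.0502 and 0.0517).

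*Plau*, which encodes uPA, the protease that turns plasminogen into plasmin and so helps to activate pro-MMPs, was lower in NSG hosts in all 4 host comparisons. It fell by 1.6 in 67NR Bptf KD tumors (adjusted p = 0.00100), by 1.62 in 67NR Control tumors (adjusted p = 0.000514), by 1.2 in 66cl4 Bptf KD tumors (adjusted p = 0.000137) and by 1.13 in 66cl4 Control tumors (adjusted p = 0.0162). *Mmp1a* (-0.90, adjusted p = 0.017) and *Mmp20* (-1.43, adjusted p = 0.0207) fell in NSG hosts in 67NR Control tumors, and *Mmp11* rose in 67NR Bptf KD tumors (0.91, adjusted p = 0.000678). *Adamts4*, an aggrecan-cleaving protease, fell in 67NR Bptf KD (-1.19, adjusted p = 0.000454), 67NR Control (-0.92, adjusted p = 0.00868) and 66cl4 Bptf KD tumors (-0.69, adjusted p = 0.00408).

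Tumors of 1 group also differed among themselves. After each group's mean was taken off, the genes whose deviations over 36 tumors were most like those of *Mmp2* were *Dcn* (Pearson r = 0.85), *Col6a3* (0.82) and *Bicc1* (0.81). For *Mmp10* they were *Map2k5* (0.87), *Pinx1* (0.84) and *Fggy* (0.81), for *Mmp12* *Ero1a* (0.75), *Higd1a* (0.72) and *Pnck* (0.71), and for *Mmp14* *Sec24c* (0.86), *Notch2* (0.84) and *Kdm5b* (0.83). *Timp1* was most like *Plaur* (0.67), *Mmp9* like *Ampd2* (0.80), *Timp3* like *Ppp1r15b* (0.84), *Mmp13* like *Gm5802* (0.71), *Mmp3* like *Tmem41a* (0.71) and *Timp2* like *Taf12* (0.70).

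Among the members, *Mmp10* deviated with *Timp1* (r = 0.59) and *Mmp3* (0.58) and against *Mmp2* (-0.55), and *Mmp14* with *Timp3* (0.59). These values share arrays and the widely spread tumors of 67NR Bptf KD in BALB/c hosts, and are given as descriptions.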

How the data were processed

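The authors hybridised biotin-labelled RNA of 36 tumors to Affymetrix mouse arrays and deposited log2 values from RMA for 22690 probe sets, and the file was used as deposited. RMA corrects background, equalizes the distribution of values between arrays and summarizes probes, and the array median was 7.03 to 7.21. Scanner files were not used here, so detection calls and array batches were not examined. Probe sets with 1 gene symbol (20393) were reduced to the brightest per gene (12394 genes). Each comparison was fitted alone with limma 3.58.1 in R 4.3.3 (lmFit, eBayes) on its own groups, interactions on 4 groups, and p-values were adjusted by Benjamini and Hochberg's method across the 12394 genes (for a gene's other probe sets, across all 22690), with 0.05 as threshold. The fit was tested on simulated data. Exact permutation tests over tumors were two-sided. Differences are the group named first minus the other. Named beyond the members were up to 4 genes per list and comparison that passed with the smallest p, and up to 3 genes most like a member. *Mmp1b*, *Mmp7* and *Mmp8* were named after their values were seen. Members, lists and tests were chosen with earlier results of these data known. The labels did not pair tumors by replicate number. P-values measure the spread between tumors, and the number of arrays limits the precision. The labels do not give the hairpin or transduction of a tumor, so the p-values do not measure variation between hairpins or transductions. Alternatives were 1 fit to the 36 tumors together, the t-test that the methods name, other scalings, filters and summaries, array weights, a replicate block, RNA integrity (a 3′ to 5′ probe ratio) as a covariate, and leaving out each tumor. Sequences are RefSeq's (GRCm38.p6).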

Additional observations from a re-analysis of the deposited data

Results flagged for a closer look

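Each set looked at held the 6 values of 1 gene in 1 Bptf KD group. In 4 of the 40 sets 1 tumor lay far from the other 5. Chance alone marks about 5% of sets, and the sets are not independent because they share tumors. The 4 were *Mmp9* in 66cl4 Bptf KD NSG replicate 5 at 8.71, *Mmp10* in 66cl4 Bptf KD BALB/c replicate 6 at 7.58, *Mmp14* in 67NR Bptf KD BALB/c replicate 6 at 9.31, below the rest, and *Timp1* in 66cl4 Bptf KD NSG replicate 1 at 11.28.

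The test of whether the Bptf KD effect differed between lines in NSG hosts (67NR minus 66cl4) passed for *Mmp14*, at 0.81 (adjusted p = 0.0447), and for *Mmp10*, at -2.53 (adjusted p = 0.0448). Both values are close to the threshold, and for *Mmp10* the 66cl4 Control tumors (5.35 to 5.73) stood so near the lowest value of the series (5.13) that a fall could not have been measured there.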

How the results depend on the processing

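Of the single differences of members, 1679 kept their side of the threshold when 1 tumor was left out, 98 lost it and 23 gained it. Under the 10 other settings 1490 kept it, 57 lost it, 51 gained it and 2 changed sign where at least 1 of the values passed. A further 39 changed sign with neither value past the threshold (20 of them with array weights), as 93 did when 1 tumor was left out. The 2 were *Timp2* between lines in NSG hosts, which became 0.68 in Control and 0.45 in Bptf KD tumors with the mean of a gene's probe sets, since dimmer probe sets run the other way. In the Bptf KD tumors both values passed, in opposite directions. Causes of the other changes were not tested. In 1 fit the array weights stopped short of convergence.

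For Bptf KD against Control, 0 members passed in 67NR BALB/c tumors, 1 in the fit of all 36 tumors and 4 with array weights. In 66cl4 BALB/c tumors it was 0, 2 with array weights and 0 to 1 without 1 tumor, and in 66cl4 NSG tumors 0, and 1 with array weights. In 67NR NSG tumors it was 3, 1 in the fit of all tumors, 0 by the methods' t-test and 0 to 3 without 1 tumor.

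Between lines, 6 passed in Control BALB/c tumors, 3 by the t-test, 3 with RNA integrity as a covariate and 3 to 6 without 1 tumor. In Bptf KD BALB/c tumors it was 3, 1 with the replicate block, 5 with array weights and 1 to 4 without 1 tumor. In Control NSG tumors it was 3, 1 by the t-test (a member other than these 3), 6 with the mean of probe sets and 0 with RNA integrity.

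Between hosts, 2 passed in 67NR Control tumors, 0 in the fit of all tumors, by the t-test or with RNA integrity, and 0 to 4 without 1 tumor. In 67NR Bptf KD tumors it was 3, 7 in the fit of all tumors, 1 by the t-test, 5 with the replicate block, 6 with array weights and 1 to 4 without 1 tumor. In 66cl4 Control tumors it was 0, 1 with the replicate block, 4 with array weights, 1 with RNA integrity and 0 to 3 without 1 tumor. In 66cl4 Bptf KD tumors it was 4, and 2 in the fit of all tumors.

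For the difference of Bptf KD effects between lines, 2 passed in NSG hosts, 0 in the fit of all tumors, by the t-test, after quantile normalization again or over all probe sets, 1 with the mean of probe sets or RNA integrity, 4 with array weights and 0 to 3 without 1 tumor. In BALB/c hosts it was 0, and 5 with array weights, and between hosts in 67NR tumors 0, and 1 with array weights.

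The labels do not pair tumors by replicate number. Deviations from the group mean correlated at -0.451 to 0.701 between same-numbered tumors, which cannot settle whether the numbers paired them. The replicate block is therefore not read as a paired analysis. With it, where only replicates 1 to 3 have a partner, the *Mmp2* difference in 67NR NSG tumors was 1.2 (adjusted p = 0.0537). Groups of 3 tumors, and dim probe sets such as that of *Mmp10* outside 67NR, limit what could be seen.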
